A study of Homo sapiens with 18 samples.

Results

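HDAC1, HDAC2, HDAC3 and HDAC8, the class I histone deacetylases, and HDAC11, the only class IV enzyme, were followed through the measurements of chromatin, enhancer activity and RNA made in LNCaP cells. These 5 genes were taken by name from 22336 genes of the mRNA-seq table. ATAC sites and enhancers were taken with them where the centre lay within 50 kb of an annotated start site on hg19, which gave 25 of 51909 merged ATAC sites and 23 of 94527 enhancers.

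LNCaP is an androgen-responsive human prostate cancer cell line. For ATAC-seq, 3 cultures received TSA (trichostatin A, 100 ng/ml for 24 h) and 3 received DMSO vehicle for 24 h, and for mRNA-seq there were 3 cultures with TSA, 3 with vehicle and 3 untreated. All of these grew in charcoal-stripped serum, which is poor in androgen. WHG-STARR-seq, a reporter assay of enhancer activity over the whole human genome, used 2 output replicates, harvested 72 h after electroporation of the plasmid library, and 1 input library, and the cloned fragments came from commercial human genomic DNA rather than from LNCaP. The files hold 1 pooled peak list for TSA, 1 for vehicle, 1 pooled enhancer set and 1 average level per gene, so the values given have no error between cultures, the library depths are not known here and conditions are described without a test. The authors' own comparison of TSA with vehicle was not used.

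Histone deacetylases remove acetyl groups from lysines of histones and other proteins, and class I and IV enzymes hold zinc in the active site, unlike the sirtuins, which use NAD. HDAC1 and HDAC2 are close paralogs and form the catalytic core of the SIN3, NuRD and CoREST corepressor complexes. HDAC3 works within the NCoR complex, HDAC8 acts outside these complexes and deacetylates the cohesin subunit SMC3, and HDAC11 removes fatty acyl groups from lysine. TSA binds the zinc site and is a broad inhibitor of these enzymes, so the 5 genes encode proteins of the kind the drug acts on.

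The 100 bases before each start site are shown because all 5 start sites lay inside an ATAC site, so that these are the bases whose accessibility was measured. Each is written 5′ to 3′ on the strand of its gene, and capitals mark matches on either strand to the motifs GGGCGG (GC box), CCAAT and TGCGCA. The positions on hg19 are chr1:32757584-32757683 for HDAC1 and chr3:13521706-13521805 for HDAC11 on the plus strand, and chr6:114292313-114292412 for HDAC2, chr5:141016417-141016516 for HDAC3 and chrX:71792694-71792793 for HDAC8 on the minus strand.
HDAC1: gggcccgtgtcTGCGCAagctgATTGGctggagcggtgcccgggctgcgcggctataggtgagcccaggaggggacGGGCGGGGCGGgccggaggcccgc
HDAC2: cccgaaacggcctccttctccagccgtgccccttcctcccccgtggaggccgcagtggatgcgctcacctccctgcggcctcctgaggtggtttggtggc
HDAC3: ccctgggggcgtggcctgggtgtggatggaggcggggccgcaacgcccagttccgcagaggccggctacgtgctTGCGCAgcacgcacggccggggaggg
HDAC8: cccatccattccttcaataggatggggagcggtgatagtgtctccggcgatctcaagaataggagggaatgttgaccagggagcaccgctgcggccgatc
HDAC11: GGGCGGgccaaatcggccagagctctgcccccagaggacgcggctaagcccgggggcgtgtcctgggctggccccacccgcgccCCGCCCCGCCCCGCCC

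The promoters differed most in base composition. Over 250 bases before the start, G and C made up 73.6% at HDAC11, 71.6% at HDAC1, 70.8% at HDAC3 and 63.2% at HDAC2, but 48.0% at HDAC8. The median over 15183 promoters of genes matched to the table was 62.4%, with quartiles of 53.2% and 70.4%. HDAC8 also had the fewest CpG dinucleotides, 7 against 18 to 24 in the other members. GC boxes numbered 5 at HDAC11, 3 at HDAC1 and 1 at HDAC3, including overlapping matches, and 56.7% of all promoters held at least 1. A CCAAT box was found only at HDAC1 among the members and in 34.6% of all promoters. TGCGCA, searched because it was seen in the sequences, was present once at HDAC1, once at HDAC3 and in 2 copies at HDAC2, in 3 of 5 members. It was found in 9.23% of all promoters, but because it was picked from these members their share cannot be compared with that value. No member matched the TATA box (TATAAA, 8.98% of promoters), the cAMP response element (TGACGTCA, 2.40%), the ETS motif (CCGGAAG, 11.9%) or the E-box (CACGTG, 7.86%) in this window. HDAC8 held none of the 7 motifs.

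HDAC1 had the highest level of the 5 genes and HDAC8 or HDAC11 the lowest, depending on the transcript length used. The authors' mean was 7.78 log2 CPM for HDAC1, 7.57 for HDAC2, 6.11 for HDAC3, 4.75 for HDAC11 and 4.69 for HDAC8. HDAC1 stood at the 96.3 percentile and HDAC8 at the 66.6 percentile of the table on this scale. Because a longer transcript gives more reads, levels between genes were compared per kb of the union of annotated exons. On that scale HDAC1 had 6.69 log2 CPM per kb, HDAC3 5.16, HDAC2 4.25, HDAC11 2.99 and HDAC8 1.21, or 104, 35.8, 19.0, 7.94 and 2.31 CPM per kb. The median of all genes was 1.51 log2 CPM per kb, and 4 of 5 members were above it, all but HDAC8. With the longest, mean or MANE transcript length all 5 were above the median of all genes, which was then 1.64, 1.94 or 1.86 log2 CPM per kb.

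The length decided some of this order. HDAC2 has 10019 bases of exon union and HDAC8 has 11226, against 2118 for HDAC1 and 1933 for HDAC3. With the MANE Select transcript, an alternative chosen after the data were seen, HDAC8 is 1754 bases long and its level was 3.88 log2 CPM per kb, above HDAC11 at 3.25. With the mean length of its transcripts HDAC2 had 5.37 log2 CPM per kb and passed HDAC3 at 5.16. HDAC1 was first under all 4 lengths and without a length. HDAC2 and HDAC3, and likewise HDAC8 and HDAC11, therefore have no fixed order in these data. The average joins libraries of different treatments, so a level in vehicle-treated cells alone is not known here.

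**Figure D1:**
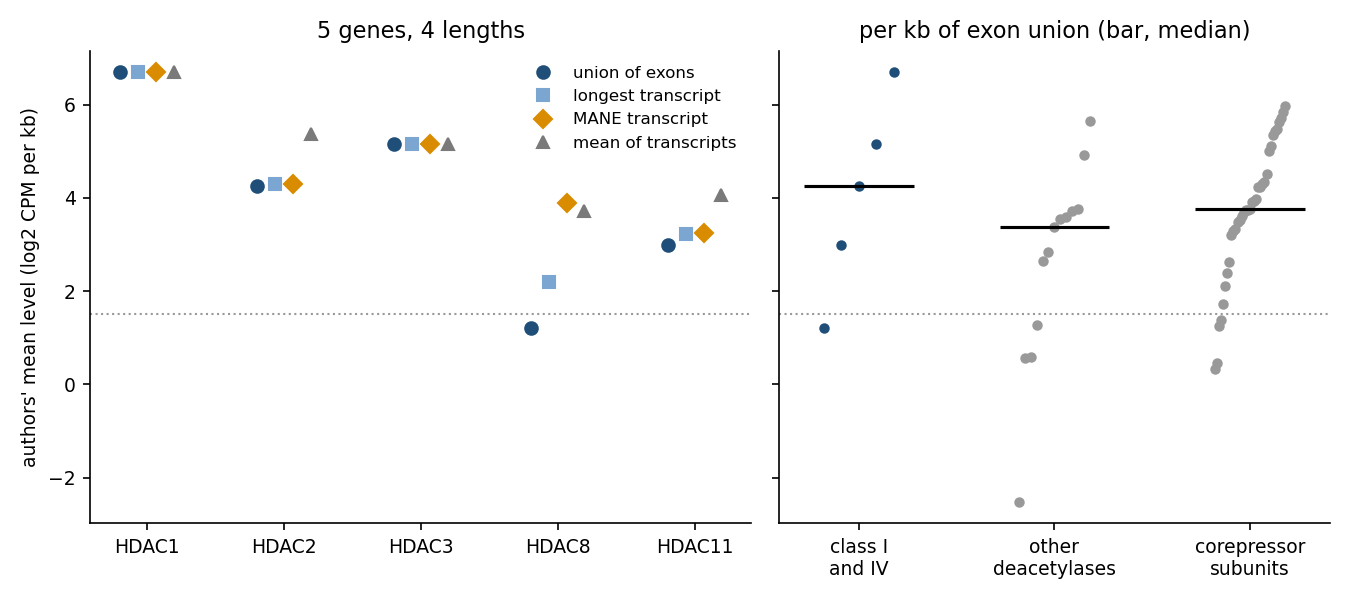
Authors' mean level in log2 CPM per kb. Left, each of the 5 genes under 4 transcript lengths, and right, the 5 genes, 13 other deacetylases and 35 corepressor subunits per kb of exon union, with 1 point per gene, a bar for the median and a dotted line for the median of all genes (1.51). HDAC1 stays at 6.69 under every length, while HDAC8 moves between 1.21 and 3.88.

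The partners of these enzymes were mostly expressed above the median gene. Of 35 subunits of the SIN3, NuRD, CoREST, NCoR and MiDAC complexes, 31 were above the median of all genes per kb, with a median of 3.76 log2 CPM per kb. HMG20B, a CoREST subunit, and CHD3, a NuRD remodeller, were the highest, at 5.98 and 5.83 log2 CPM per kb. ING1, a SIN3 subunit that binds methylated histone H3, and RCOR2, a CoREST scaffold, were the lowest, at 0.32 and 0.46. Of 13 other deacetylases, 9 were above the median of all genes, and their own median was 3.37 log2 CPM per kb. SIRT2, a tubulin deacetylase, had 5.64 and HDAC10, a polyamine deacetylase, had 4.92, both below HDAC1. SIRT4, a mitochondrial sirtuin, had 0.57 and HDAC9, a class IIa enzyme, had −2.52, below all 5 members.

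The luminal identity of the cells was checked on the same averages. Among luminal markers, FOLH1 had 11.17 log2 CPM, HOXB13 8.81, KRT8 8.70, KLK3 8.04, KRT18 7.89, TMPRSS2 6.00 and KLK2 4.41. Of 6 markers of basal and stromal cells, 2 were above the median gene, namely COL1A1 at 6.77 and KRT5 at 6.23 log2 CPM, and the other 4 (TP63, KRT14, COL3A1 and DCN) were between −2.21 and 0.23. The leukocyte markers PTPRC and CD3E had −1.89 and −2.62 log2 CPM. A site of both lists covered the start of COL1A1 (0.141 with TSA and 0.112 with vehicle), while no merged ATAC site covered a start site of KRT5, nor of the luminal marker KLK3. The part of COL1A1 and KRT5 in the values of the members was not tested, and without values per library it cannot be said which cultures carried them.

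All 5 start sites lay in an ATAC site of both peak lists, TSA and vehicle, as did those of 54.5% of 20752 genes with an annotated start site and 84.3% of 7245 such genes with a level at or above that of HDAC8. The Fseq score, a smoothed density of transposon cuts with no unit, was the measure of openness. HDAC11 had the highest scores, 0.234 with TSA and 0.221 with vehicle (chr3:13520587-13522743). HDAC2 followed with 0.196 with TSA and 0.161 with vehicle (chr6:114290688-114293338). HDAC3 had 0.152 with TSA and 0.151 with vehicle (chr5:141015440-141018247). HDAC1 had 0.0983 with TSA and 0.0748 with vehicle (chr1:32757127-32758786), and HDAC8 had 0.0917 with TSA and 0.0902 with vehicle (chrX:71791642-71793804). The order of openness was thus not that of RNA level, since HDAC1 had the most RNA and HDAC11 the most open start.

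The scores at the 5 starts were close in the 2 conditions. The ratio of TSA to vehicle score was 1.31 at HDAC1, 1.22 at HDAC2, 1.06 at HDAC11, 1.02 at HDAC8 and 1.00 at HDAC3. None reached 1.5, a ratio reached by 12.1% of 11307 genes whose start lay in a shared site. The median of those genes was 1.15, with quartiles of 1.01 and 1.33, and HDAC1 and HDAC2 stood at the 73.2 and 61.1 percentiles, HDAC11 at 34.5, HDAC8 at 27.0 and HDAC3 at 24.6. After division by the median score of shared sites in each list the ratios were 1.24 at HDAC1 and 1.15 at HDAC2, but 0.994 at HDAC11, 0.956 at HDAC8 and 0.943 at HDAC3. The last 3 thus changed side with the scaling. With 1 pooled score per condition and no error between cultures, a direction was not tested for any of the 5. The HDAC3 site also covers the start of RELL2, which lies 0.101 kb away, and its score cannot be given to either gene alone.

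Among corepressor subunits, 32 of 35 start sites lay in shared sites and the median ratio was 1.14. SIN3B and DNTTIP1 had a start site in the TSA list alone and KDM1A in neither list. The ratio reached 1.5 at 3 of the 32, against 12.1% of all such genes. The highest were TBL1X (1.71) and GPS2 (1.62), named after their values were seen. Both are subunits of the NCoR complex that holds HDAC3, in which TBL1XR1 had 1.48 and NCOR1 0.761. Among the other deacetylases 9 of 13 start sites were shared, with a median ratio of 1.21. HDAC4, a class IIa enzyme, was the only one to reach 1.5, with 0.243 with TSA and 0.147 with vehicle and a ratio of 1.66. HDAC9 and SIRT7 had a start site in the TSA list alone, as did 5.19% of all genes, SIRT6 in the vehicle list alone, as did 1.08%, and HDAC5 in neither list, as did 39.2%.

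Within 50 kb the 25 ATAC sites were spread unevenly, with 7 at HDAC11, 6 at HDAC3, 5 each at HDAC2 and HDAC8 and 2 at HDAC1. The median gene had 3, with quartiles of 1 and 4. Both lists held 15 of the 25. The TSA list alone held 6 (25.9% of all merged sites were of this kind) and the vehicle list alone held 4 (21.6% of all merged sites). Among the members these are 6 and 4 of 25, shares near the background. A site missing from a list had no peak above that list's lowest score, 0.0377 for TSA and 0.0390 for vehicle, and need not have been closed. Of the 15 shared sites 1 had a TSA score at least 1.5 times the vehicle score, against 11.0% of all shared sites, and 0 had the reverse, against 7.17%. The median ratio over the 15 was 1.06 and over all shared sites 1.07.

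The site that passed 1.5 lies 24.7 kb upstream of HDAC2, at chr6:114316594-114317378, in an exon of the antisense transcript HDAC2-AS2. Its score was 0.130 with TSA and 0.0483 with vehicle, a ratio of 2.68. A neighbouring site 23.9 kb upstream had 0.0968 with TSA and 0.105 with vehicle, so that the ratios of these 2 adjoining sites in the same antisense gene differed. The site 10.0 kb upstream had 0.0489 with TSA and 0.0524 with vehicle, and the site 29.2 kb upstream was found with TSA alone at 0.0418, close to the lowest score of the list.

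HDAC1 had 2 sites, its own start and the start of MARCKSL1, a MARCKS family actin regulator, 44.3 kb downstream. At the MARCKSL1 site the score was 0.0635 with TSA and 0.0491 with vehicle, a ratio of 1.29 beside 1.31 at HDAC1. Around HDAC3 the strongest site was the start of DIAPH1, a formin gene 18.2 kb downstream, with 0.204 with TSA and 0.182 with vehicle. The start of ARAP3 was found with TSA alone (0.0601) and that of FCHSD1 with vehicle alone (0.0433). The remaining HDAC3 sites were 28.1 kb upstream, with TSA alone (0.0389), and 44.6 kb downstream, with vehicle alone (0.0432).

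HDAC8 had sites found in 1 list on both sides of its start. A site in its own intron 3.90 kb downstream was found with vehicle alone at 0.0516, and 1 in an intron 26.3 kb downstream with TSA alone at 0.0608. A site 36.3 kb upstream, in an intron of PHKA1, was found with TSA alone at 0.0449, and one 47.9 kb upstream in the same gene had 0.160 with TSA and 0.144 with vehicle. That shared site scored higher than the start of HDAC8 in both lists. At HDAC11, 5 of 7 sites were shared, with ratios between 0.879 and 1.13. The site 25.8 kb downstream was found with TSA alone at 0.0530, and the site 43.2 kb downstream with vehicle alone at 0.0408. Over the whole genome the median score of sites found in 1 list was 0.0451 for TSA and 0.0465 for vehicle.

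**Figure D2:**
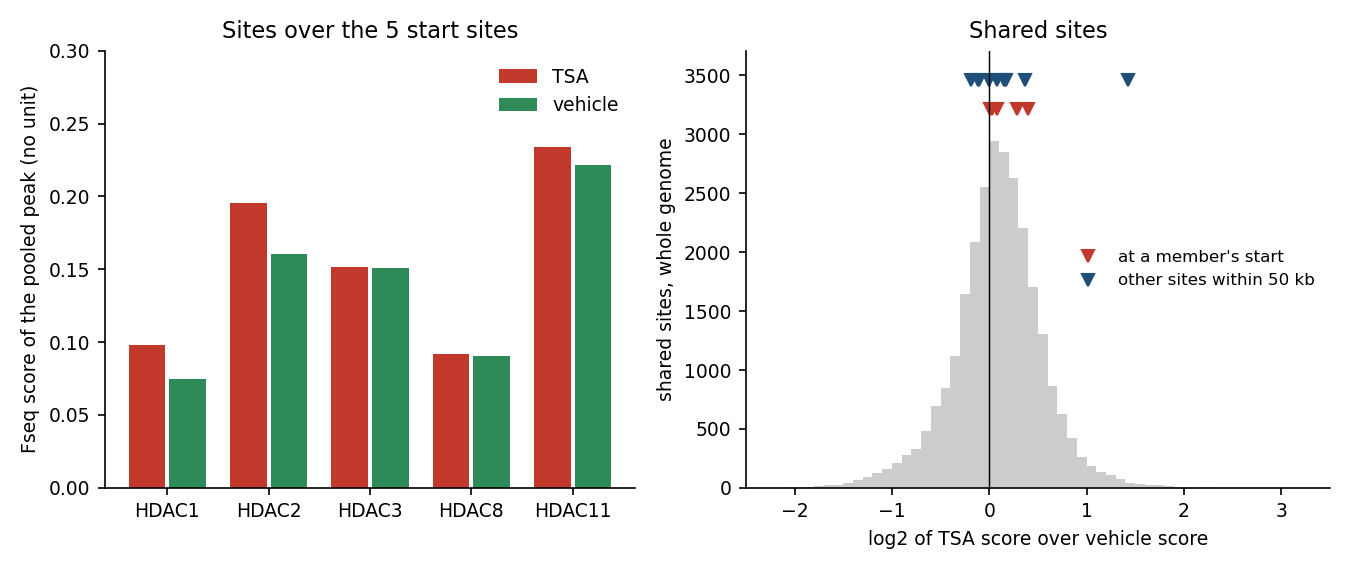
Left, Fseq score of the pooled peak over each start site, with TSA beside vehicle, without error bars because each condition has 1 pooled list. Right, number of shared sites over the genome by log2 ratio of TSA to vehicle score, with triangles for the 5 starts (lower row) and the other 10 shared sites within 50 kb (upper row), of which only the HDAC2 site 24.7 kb upstream lies far to the right, at a ratio of 2.68.

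In WHG-STARR-seq a genomic fragment sits in the transcribed part of a reporter, so that an active fragment is found in the reporter RNA more often than in the input plasmids. The 23 enhancers had a median fold enrichment of 2.98, against 3.02 for 49169 enhancers within 50 kb of any gene. HDAC11 had 7, HDAC2 had 5, HDAC3 and HDAC8 had 4 each and HDAC1 had 3. The median gene had 4, with quartiles of 3 and 6. Enhancers are called open where they overlap a DNase I site of LNCaP and closed where they do not. Of the 23, 6 were open (26.1%), against 20.2% of enhancers within 50 kb of a gene. Each member had at least 1 open enhancer, as did 56.7% of all genes and 68.8% of genes with a level at or above that of HDAC8. The start nearest to the enhancer was that of the member in 12 cases and that of another gene in 11.

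HDAC11 had the strongest of the 23 enhancers. It lies 24.2 kb upstream in closed chromatin between genes, at chr3:13496584-13497409, and reached a fold enrichment of 10.4 (9.17 to 11.8, exact Poisson 95% interval of the output count with input held fixed) from 254 output fragments against 23.5 scaled input fragments. Of all enhancers, 1.11% were above 10-fold. Another closed enhancer 45.05 kb downstream, at chr3:13567359-13568233, had 6.15-fold (5.33 to 7.06) from 200 output fragments against 31.7 scaled input fragments, and the nearest start there is that of FBLN2, a matrix protein gene 22.8 kb away. The interval of the first lay above those of the other 22, and that of the second overlapped 1 of the remaining 21, the HDAC2 enhancer 1.79 kb downstream. These intervals treat fragments as independent, although the same fragment can be counted in several PCR libraries, so they may be too narrow. No ATAC site of either list covered either of these enhancers. The 150 bases at each summit are shown as the sequences with the most activity near any member, in lower case throughout because no motif searched matched there, from chr3:13496926-13497075 and chr3:13567687-13567836 on the plus strand.
HDAC11 24.2 kb upstream: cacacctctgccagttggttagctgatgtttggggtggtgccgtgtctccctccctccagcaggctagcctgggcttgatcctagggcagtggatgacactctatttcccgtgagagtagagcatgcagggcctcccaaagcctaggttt
HDAC11 45.05 kb downstream: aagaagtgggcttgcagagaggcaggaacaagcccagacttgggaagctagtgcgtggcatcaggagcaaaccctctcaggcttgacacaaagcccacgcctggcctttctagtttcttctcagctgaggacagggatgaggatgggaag

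The other HDAC11 enhancers were weaker. The nearest to the start was 19.2 kb upstream at 1.83-fold (1.40 to 2.36), the weakest of the 23, in the pseudogene PRR3P1. An enhancer in an intron 19.3 kb downstream had 2.46-fold (1.99 to 3.01) and was the only open one, with no ATAC site over it. The remaining 3 were closed, 41.0 kb upstream (2.93-fold), 45.7 kb upstream (2.83-fold) and 48.9 kb downstream (2.46-fold).

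HDAC2 was the only member with an enhancer beside its own start. This enhancer, at chr6:114292331-114292811, was open, lay inside the shared ATAC site of the promoter and had 2.47-fold (1.90 to 3.17) from 60 output fragments against 23.7 scaled input fragments. A closed enhancer 1.79 kb downstream, in an intron, had 3.94-fold (2.79 to 5.41) from 36 output fragments. Closed enhancers 8.45 and 11.2 kb upstream had 3.51-fold (2.44 to 4.91) and 4.06-fold (3.08 to 5.26), and one 45.2 kb upstream had 3.58-fold. All 4 closed enhancers of HDAC2 had a higher fold than the open one, and all 4 intervals overlapped its interval. Those 8.45 kb upstream and 1.79 kb downstream had a scaled input of 8.40 fragments, the lowest value over all enhancers. This value was shared by 14.2% of all enhancers and is a floor, not a count measured at each enhancer. At the floor the fold follows the output count alone. The 150 bases at the summit of the promoter enhancer, chr6:114292417-114292566 on the plus strand, are shown because they hold both copies of TGCGCA, in capitals, on the side of the start away from the gene.
HDAC2 promoter enhancer: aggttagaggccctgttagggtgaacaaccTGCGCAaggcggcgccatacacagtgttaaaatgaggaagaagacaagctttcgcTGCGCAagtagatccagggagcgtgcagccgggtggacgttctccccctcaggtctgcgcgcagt

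HDAC8 had 4 enhancers whose intervals all overlapped, and 3 of them lay in ATAC sites of 3 different kinds. The open enhancer 47.6 kb upstream, in an intron of PHKA1, had 3.83-fold (2.70 to 5.29) inside the shared site there. A closed enhancer 36.1 kb upstream in the same gene had 3.19-fold (2.17 to 4.54) and overlapped the site found with TSA alone. A closed enhancer 3.57 kb downstream, in an intron of HDAC8, had the same 3.19-fold from 29 output fragments and overlapped the site found with vehicle alone. The last, 17.8 kb downstream in an intron, had 2.98-fold (2.00 to 4.29) and no ATAC site. All 4 also had the scaled input at the floor of 8.40 fragments, so their folds followed the output count alone. This floor was shared by 41.6% of 2183 enhancers on chromosome X, against 13.5% of 92097 on the autosomes. The bases at the 2 closed summits are shown because each enhancer overlapped a site found in 1 condition, although only the end of the first stretch and none of the second lies inside the site, at chrX:71828805-71828954 and chrX:71789147-71789296 on the plus strand, with a match to the hexamer AGAACA in capitals.
HDAC8 36.1 kb upstream: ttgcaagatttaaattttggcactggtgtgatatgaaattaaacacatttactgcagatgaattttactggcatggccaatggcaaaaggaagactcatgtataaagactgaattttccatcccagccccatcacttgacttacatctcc
HDAC8 3.57 kb downstream: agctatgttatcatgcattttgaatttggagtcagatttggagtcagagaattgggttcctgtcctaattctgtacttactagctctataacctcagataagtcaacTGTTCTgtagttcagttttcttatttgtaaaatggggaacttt

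HDAC3 and HDAC1 had enhancers mainly at their neighbours. Both open enhancers of HDAC3 lay in the shared site at the DIAPH1 start, 17.7 and 18.6 kb downstream, at 3.09-fold (2.23 to 4.18) and 2.99-fold (2.05 to 4.22). A closed enhancer 10.8 kb downstream, in an exon of HDAC3, had 2.79-fold (2.14 to 3.58), and one 30.1 kb upstream in an intron of ARAP3 had 2.70-fold. HDAC1 had no enhancer within 10 kb. Of its 3 enhancers, the one 41.9 kb upstream had 2.49-fold (1.90 to 3.21) and lay near a start of LCK, a lymphoid kinase gene. The others had 1.85-fold and 1.92-fold and lay at MARCKSL1, 42.4 and 45.1 kb downstream. The member with the most RNA per kb thus had no enhancer as strong as the median of all enhancers, 3.08-fold.

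Closed enhancers in an ATAC site numbered 3 of 17 (17.6%), against 2.47% of closed enhancers within 50 kb of any gene. These were the 2 of HDAC8 and the one 45.1 kb downstream of HDAC1, in the shared MARCKSL1 site. With 3 enhancers, and sites of 3 different kinds (TSA alone, vehicle alone and shared), nothing can be said of a direction.

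**Figure D3:**
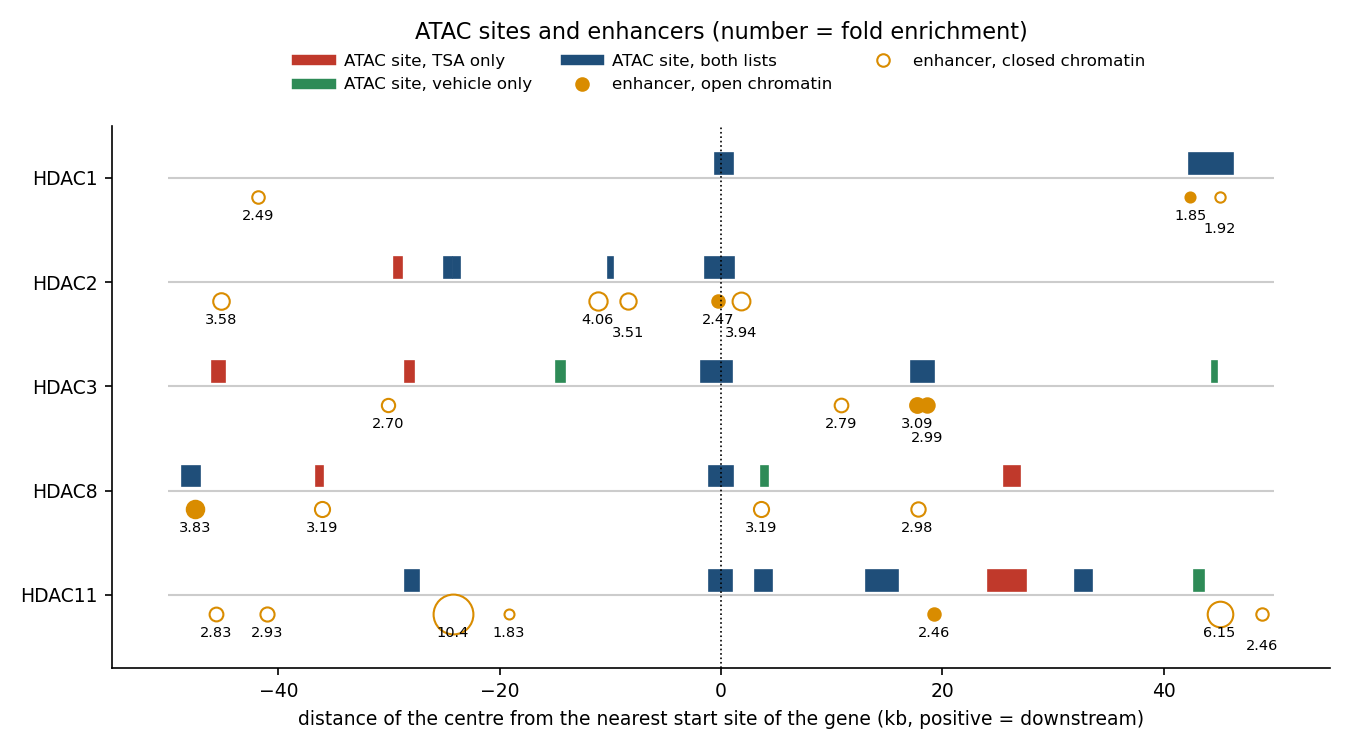
ATAC sites (bars, to scale, red for TSA list only, green for vehicle list only, blue for both) and enhancers (circles, filled for open and empty for closed chromatin, larger for higher fold, with the fold printed) by distance in kb from the nearest start site of each gene, positive downstream. HDAC11 carries the 10.4-fold and 6.15-fold enhancers, HDAC2 the only enhancer beside a member's start, and HDAC1 has nothing between its start and 41.9 kb on the upstream side.

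**Figure D4:**
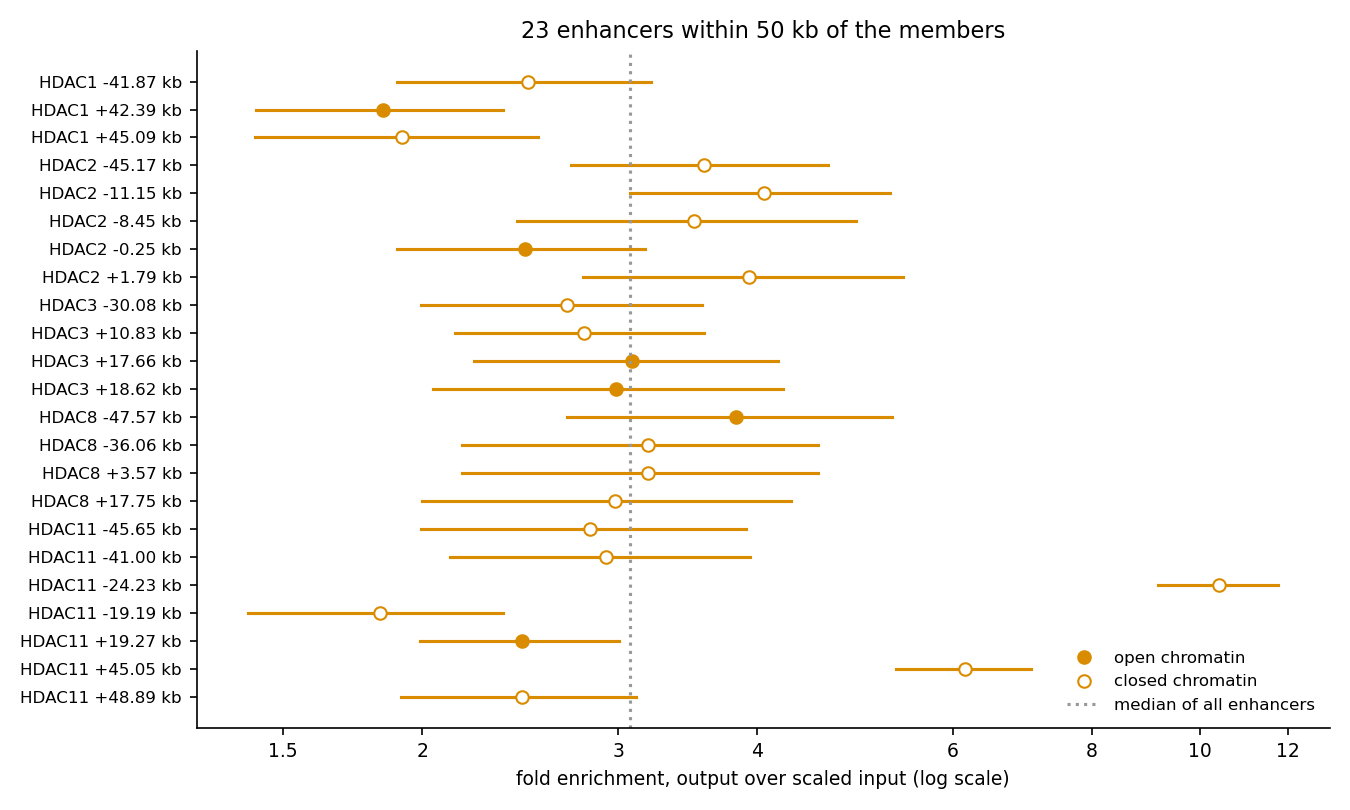
Fold enrichment of each of the 23 enhancers on a log axis, with the exact Poisson 95% interval of the output count as a bar, filled circles for open and empty circles for closed chromatin. The dotted line is the median of all enhancers (3.08), and the 2 highest points are HDAC11 enhancers, at 10.4 with an interval above all others and at 6.15 with an interval that overlaps 1 of the others.

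No motif searched was found in more than 4 of the 23 enhancers, and their sequences were not compared with each other. In 300 bases around the summit, the AP-1 motif TGANTCA was found in 3, against 11.6% of all enhancers, the hexamer AGAACA in 4 against 21.3%, the GC box in 2 against 8.03%, the forkhead motif TGTTTAC in 1 against 4.71%, the E-box in 1 against 4.73% and the cAMP response element in 0 against 0.299%. G and C made up a median of 59.5% in the 6 open and 48.7% in the 17 closed enhancers, beside 59.0% and 47.7% over all open and closed enhancers. At 19 of the 23, the median 20-base word in the 150 bases around the summit occurred once in the genome. The other 4 were closed, 2 at HDAC2 (8.45 and 45.2 kb upstream, with medians of 1275 and 23 copies) and 2 at HDAC11 (41.0 and 45.7 kb upstream, with 1320 and 3 copies). At the 10.4-fold enhancer 93.1% of these words were single copy, and at the 6.15-fold enhancer 96.9%.

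At the edge of the 50 kb window the last enhancer inside was 48.9 kb from HDAC11 (2.46-fold) and the first outside was 51.3 kb from HDAC2 (2.14-fold). The last ATAC site inside was 47.9 kb from HDAC8, scoring 0.160 with TSA and 0.144 with vehicle, and the first outside was 51.9 kb from HDAC1, scoring 0.0468 with TSA and 0.0525 with vehicle.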

How the data were processed

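ATAC-seq, mRNA-seq and WHG-STARR-seq of LNCaP were used. Enhancers were called by the authors with MACS2 at a q-value under 0.05, on both output replicates together, after alignment with Bowtie to hg19, removal of reads with several placements and collapse of duplicates with Picard. Each deposited enhancer has a fold enrichment (a ratio), a −log10 p-value and a −log10 q-value, and open ones also a DNase I score. ATAC-seq reads went through Bowtie, cutadapt with Bowtie2, and Picard, were shifted to the cut and given to Fseq, and the authors deposited an Fseq score per peak of the pooled libraries of each condition. The 2 tables of merged sites and genes, from edgeR (mRNA-seq reads aligned with TopHat), hold the authors' average in log2 CPM and their comparison of TSA with vehicle (log2 fold change, likelihood ratio, p-value and, for sites, q-value), which was not used. Versions of these tools, and the libraries behind each average, are not given in the sources.

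Start sites and lengths came from the GENCODE annotation of GRCh37, in which 20752 of 22336 gene symbols matched. The union of the 2 peak lists gave the merged sites, and overlap meant at least 1 shared base. A score ratio was read at 1.5, and a site with several peaks took the highest. Output and scaled input fragments at a summit were recovered from fold and p-value, since fold is (output + 1) over (scaled input + 1), and the members' counts lay within 0.000664 of whole numbers. The authors collapsed duplicates within each separately indexed PCR library and then pooled the libraries, so the same fragment can be counted more than once. Intervals cover counting error only, treat fragments as independent and may be too narrow. Promoter sequence was read from hg19 and equalled the RefSeq windows (GRCh38.p14) for all 5 members. Motifs were searched on both strands. Recovery and counting were tested on simulated data. Python 3.11.15, numpy 2.4.6, pandas 2.3.3, scipy 1.17.1 and matplotlib 3.10.9 were used.

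Members, lists and motifs were chosen with earlier results of these data known. The text names the 5 genes, for each the 2 nearest ATAC sites, the 3 nearest and the strongest enhancers, the 2 highest and 2 lowest genes of each list per kb, and the luminal markers. Some genes are not reported here. Alternatives were the transcript length, the window, the way of measuring distance, the q-value, the definition of open, the overlap rule and the score scaling. With 1 pooled list or average per comparison, no test was run.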

Additional observations from a re-analysis of the deposited data

How the results depend on the processing

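The median level of the 5 genes, 4.25 log2 CPM per kb of exon union, was 4.29 with the longest or the MANE transcript and 5.16 with the mean transcript length. The median of the corepressor subunits, 3.76, was 4.12 with the longest, 4.41 with the mean and 4.14 with the MANE length, and that of the other deacetylases, 3.37, was 3.51, 3.74 and 3.51 in the same order. The MANE length was added after the data were seen. A window of 10 kb left 8 ATAC sites and 4 enhancers, and one of 100 kb gave 48 and 40. Asking for a q-value under 1e-05 left 20 of 23 enhancers, and under 1e-10 left 5, of which 2 were at HDAC2 and 3 at HDAC11. The share of all enhancers under these q-values is not given here, so the loss cannot be read as particular to the members. The median ratio of TSA to vehicle score at the 5 starts, 1.06, was 0.994 after scaling by shared sites. The median fold, 2.98, was 3.20 without the pseudocount of 1. The share of open enhancers was 26.1% with vehicle ATAC peaks in place of DNase I sites and 34.8% with peaks of either list. No paired analysis was possible because no file used here holds a value per library. Depth is unknown, so a site absent from a list may lie just under its lowest score.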
